A study of Oryza sativa with 18 samples.

Results

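The salt response of the FKBP73 knockout of rice was measured as messenger RNA of leaves in 6 libraries, 3 of plants exposed to 150 mM NaCl for 4 hours and 3 of plants in normal nutrient solution. These 6 libraries were taken by their labels from a series of 18, in which the wild-type cultivar Ningjing 4 and an FKBP57 knockout were treated in the same way, with 3 biological replicates in each of the 6 groups per the series design. The labels describe the knockouts as lines without an allele, a count of independent lines or a plant age, and give no time for the control libraries, so a difference in harvest time or handling cannot be told apart from salt. No source used here gives the identifier of the FKBP73 gene, so the knockout was not checked at its target.

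FKBP73 is an FK506-binding protein. Such proteins turn peptide bonds before proline and so assist the folding of other proteins, and the large plant members also bind the chaperone HSP90. The series title links FKBP57 and FKBP73 to salt tolerance through the SOS pathway, a kinase and antiporter module that exports sodium from plant cells. Salt in the root medium also raises abscisic acid (ABA), a hormone sensed by PYL receptors. ABA-bound receptors hold PP2C phosphatases in check, which frees SAPK kinases to act on bZIP factors, and these switch on protective genes such as those of LEA proteins.

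The 3 control libraries of the FKBP73 knockout held 31854526, 30195291 and 29122778 counts, and the 3 salt libraries held 33443482, 28344668 and 31205570. Of 37863 genes in the table, 25957 had enough counts to be tested. Replicates of the FKBP73 knockout lay close together: the median SD of a gene's log2 CPM (counts relative to the scaled total of the library) was 0.272 under control and 0.229 under salt, against 0.440 and 0.264 in wild type and 0.546 and 0.297 in the FKBP57 knockout. In a principal component analysis of the 6 libraries, the first component held 64.2% of the variance and set the controls, at -81.3, -79.0 and -82.6, apart from the salt libraries, at 89.5, 92.4 and 61.1. Salt library 3 thus lay nearest to the controls. The second component held 12.8% and spread the controls, at 53.2, -68.8 and 12.7. Markers of other organs were low: 2 root markers summed to 9.26 to 15.5 CPM under control and 6.02 to 9.17 CPM under salt, 1 of them giving 98.4% of the sum over all libraries. A pair of shoot meristem markers was at 0 in 5 of the 6 libraries and at 0.129 CPM in control 3.

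Salt changed 3722 genes in the FKBP73 knockout, 14.3% of those tested, at an adjusted p under 0.05 in edgeR's quasi-likelihood test fitted to all 18 libraries. Of these, 2304 rose (8.88%) and 1418 fell (5.46%). The median log2 fold change was 1.36 among the genes that rose and -1.46 among those that fell, with -0.03 over all genes tested. A change of at least 4-fold was found for 654 of the genes that rose and 396 of those that fell. The count depended on single libraries: leaving out control 1 or control 3 gave 2203 and 2196, and leaving out salt 1 or salt 2 gave 1908 and 1967. It was 7150 when the 6 libraries were fitted alone, 3617 higher and 3533 lower, so the excess of genes that rose over genes that fell was not kept in that fit.

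**Figure D1:**
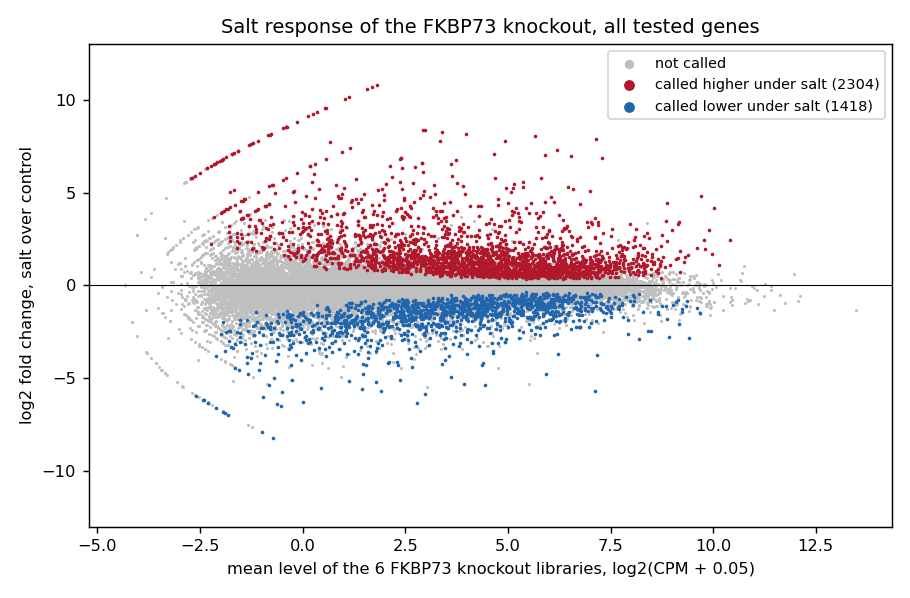
Log2 fold change under salt (vertical axis) against mean level over the 6 FKBP73 knockout libraries as log2(CPM + 0.05) (horizontal axis), 1 point per tested gene. The 2304 genes called higher (red) and 1418 called lower (blue) at an adjusted p under 0.05 spread over the whole range of levels. The slanting streaks at the upper and lower left are genes with no count, or nearly none, in 1 group, whose fitted fold change depends on the prior count and is not a bound.

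Called genes were 14.3% of those tested (8.88% rose, 5.46% fell), and their shares of counts moved under salt. The genes that rose held 7.03%, 6.47% and 7.30% of counts in the 3 controls and 18.7%, 19.6% and 15.7% in the 3 salt libraries. The genes that fell held 7.69%, 6.44% and 7.61% under control and 2.90%, 2.77% and 3.57% under salt. Since the same libraries chose these genes, the shares describe them and carry no test. The share of genes called was 6.92% of the 4409 genes under 1 CPM and 18.3% of the 2266 genes at 100 CPM or more. The median size of a called change was 3.10 on the log2 scale in the lowest class and 1.13 in the highest.

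Some genes were close to silent in 1 condition. No count was found in the 3 controls for 84 tested genes, of which 42 were called higher under salt, and none in the 3 salt libraries for 61, of which 11 were called lower. Both numbers include 23 genes without a count in any of the 6 libraries. Among called genes, 45 were under 1 CPM in the mean of the controls and at 10 CPM or more under salt, and 7 went the opposite way. The files and the reference table used here do not pair the identifiers with gene names, so the 2 largest changes in each direction are given as identifiers. The choice was limited to called genes whose salt and control libraries did not overlap and that reached a mean of 10 CPM under the condition where they were higher, which 1668 genes that rose and 866 that fell did.

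Os03g0645900 was at 0.0617, 0 and 0.0647 CPM in the controls of the FKBP73 knockout and at 14.4, 20.7 and 11.9 CPM under salt. The controls rested on 2, 0 and 2 counts, so the size of the fold is loosely set. The gene rose by 8.39 on the log2 scale (SE 1.03, edgeR adjusted p = 0.00013). Under salt it stood at 15.7 ± 4.56 CPM (SD, n = 3), against 6.96 ± 3.79 CPM in wild type and 6.75 ± 0.395 CPM in the FKBP57 knockout. Each salt library of the FKBP73 knockout was above each salt library of both other genotypes, the nearest being wild-type salt 1 at 10.2 CPM. The gene was chosen for its rise in the FKBP73 libraries, so that order carries no test. The fold changes were 6.55 in wild type and 7.01 in the FKBP57 knockout, and the difference from wild type did not pass (1.84, SE 1.47, edgeR adjusted p = 0.99).

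Os04g0415800 was at 0.123, 0 and 0 CPM in the controls, on 4, 0 and 0 counts, and at 14.9, 17.0 and 13.8 CPM under salt. It rose by 8.35 on the log2 scale (SE 0.71, edgeR adjusted p = 2.3e-05). In wild type it rose by 8.84. The FKBP57 knockout had no count of it under control and 24.5 ± 7.97 CPM (SD, n = 3) under salt.

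Os05g0503650 was at 12.7, 9.84 and 18.3 CPM in the controls and at 0, 0.0654 and 0.444 CPM under salt, with no overlap. It fell by 6.31 on the log2 scale (SE 1.51, edgeR adjusted p = 0.012). The call was lost without salt 1 (edgeR adjusted p = 0.058) and without salt 2 (0.063). Os02g0308400 was at 26.9, 7.45 and 11.7 CPM in the controls and at 0.409, 0.0654 and 0.317 CPM under salt. It fell by 5.83 on the log2 scale (SE 1.5, edgeR adjusted p = 0.017), and the call was lost without control 1 (0.052), salt 1 (0.063), salt 2 (0.082) or salt 3 (0.053). In the other genotypes both genes were at 3.34 CPM or below under salt, but their controls were uneven: wild-type control 3 was at 0.788 and 1.43 CPM and FKBP57 knockout control 3 at 0.582 CPM for each.

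**Figure D2:**
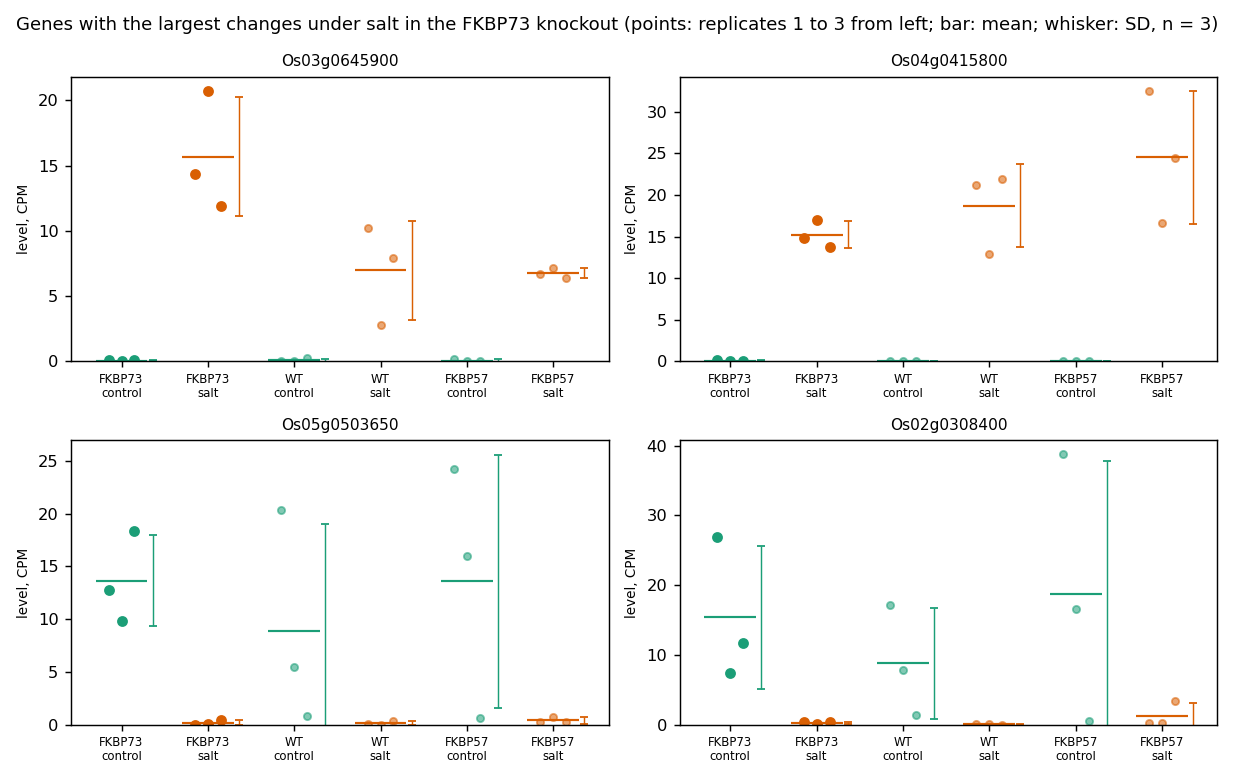
Level of the 2 genes that rose most and the 2 that fell most under the naming rule, in CPM (vertical axes, linear from 0), in each of the 18 libraries (points, replicates 1 to 3 from left) with the group mean (bar) and SD (whisker, cut at 0). In the FKBP73 knockout the salt libraries lie at 11.9 to 20.7 CPM for Os03g0645900 and 13.8 to 17.0 CPM for Os04g0415800, and at 0.444 CPM or below for the genes that fell.

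Gene families were followed through 29 lists of 272 identifiers, of which 257 were tested. Memberships were recalled from knowledge of rice identifiers and could not be checked against a table, so some may be wrong, and near-identical copies within a family may share reads. Of the 257, 85 rose (33.1%) and 19 fell (7.39%), beside 8.88% and 5.46% of all genes. In bulk leaf tissue, fewer cells of a type and less RNA per cell cannot be told apart.

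PYL receptors, which bind the hormone, fell for 3 of 6 tested members and rose for none, with a median of -0.71 and a range of -2.05 to 0.14. Over all libraries 1 member gave 52.7% of their summed level. That level was 224, 223 and 205 CPM under control and 136, 98.8 and 151 CPM under salt. Every salt library was thus below every control. Such a lack of overlap held for 3 of the 6 members, beside 21.7% of all genes lower and 24.1% higher. Only 1 member was called when any 1 of the 6 libraries was left out. PP2C phosphatases, which are themselves induced by ABA and damp its signal, rose for 8 of 9, with a median of 3.71 and a range of 0.07 to 5.39. Their sum was 120, 123 and 116 CPM under control and 544, 591 and 497 CPM under salt, and 8 members were called whichever library was left out. SAPK kinases, which the phosphatases hold inactive, rose for 3 of 10, and all 10 had a positive estimate (median 0.65, highest 1.87). With the 6 FKBP73 libraries fitted alone 6 of the 10 rose.

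Further along the pathway, bZIP and HD-Zip factors that act on ABA-responsive promoters rose for 6 of 10 members, with a median of 1.09 and a highest value of 6.85. Their sum was 153, 159 and 162 CPM under control and 735, 776 and 684 CPM under salt. LEA proteins and dehydrins, hydrophilic proteins that protect cells as they lose water, rose for 8 of 9 tested members, with a median of 3.92 and a range of 2.67 to 8.24. Their sum was 74.2, 290 and 325 CPM in the controls, control 1 being the lowest, and 2764, 3508 and 2463 CPM under salt. The count fell to 5 without control 1, control 2 or salt 2, and the 3 salt libraries were above the 3 controls for all 9 members, beside 24.1% of all genes. Genes of ABA synthesis and breakdown moved both ways: 5 of 10 rose and 1 fell, over a range of -5.58 to 8.39, and 3 rose without control 1, control 2, salt 1 or salt 2. The highest value is that of Os03g0645900, described above, which is a recalled member of this list and so not a separate finding. The response of 2 of the 10 differed from wild type at an unadjusted p under 0.05, beside 2.99% of all genes, and of none after adjustment. NAC and DREB factors, transcription factors of drought and salt responses, rose for 7 of 14 and fell for 2. Their 2 lower calls were lost without control 3, salt 1 or salt 2, and 7 rose whichever library was left out.

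**Figure D3:**
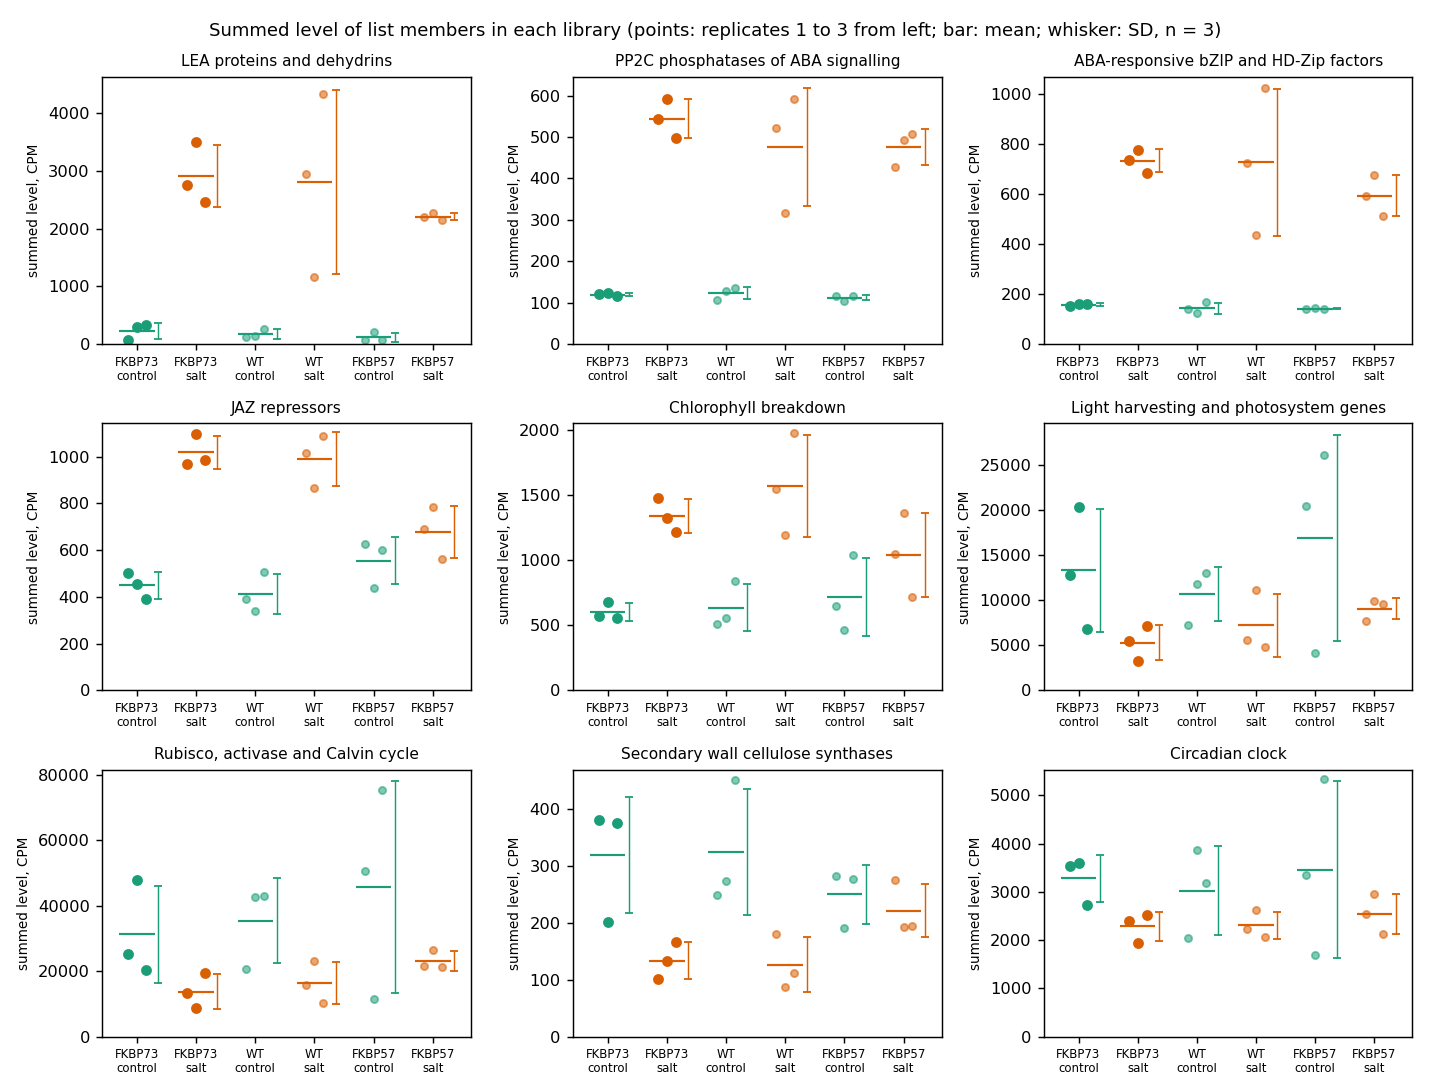
Summed level of list members in CPM (vertical axes, linear from 0) in each of the 18 libraries (points, replicates 1 to 3 from left), with the group mean (bar) and SD (whisker) over 3 libraries. The larger, darker points are the FKBP73 knockout. LEA proteins reach 2463 to 3508 CPM under salt from 74.2 to 325 CPM under control, and for light-harvesting genes the lowest control, at 6794 CPM, lies under the highest salt library, at 7111 CPM.

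The SOS pathway of the series title was followed in 1 list with other sodium and potassium transporters, so its counts are not those of the pathway alone. Genes of this list rose for 7 of 20 members and fell for 1, with a median of 0.57. Their summed level was 645, 617 and 623 CPM under control and 1148, 1041 and 1057 CPM under salt, with every salt library above every control. In wild type 8 members were called higher and in the FKBP57 knockout 4, beside 13.6% and 4.64% of all genes, with medians of 0.81 and 0.41. The number that rose was 4 without salt 1. The 1 lower call was lost without control 1, salt 1, salt 2 or salt 3, and that gene had no count in the salt libraries. The medians set 2 members without counts in a group to a floor of 3 counts over the group. No member's response differed from that of wild type, or of the FKBP57 knockout, after adjustment. At an unadjusted p under 0.05, 2 of 20 differed from the FKBP57 knockout, beside 3.39% of all genes, and none from wild type.

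Small heat shock proteins, which hold unfolding proteins in solution, rose for 3 of 6 tested members (median 1.26). They summed to 23.3, 34.9 and 27.9 CPM under control and 150, 118 and 53.2 CPM under salt, salt 3 being the lowest of the salt libraries. Heat shock factors, their transcriptional activators, rose for 4 of 7 (median 1.34), and the HSP90, HSP70 and HSP101 chaperones for 1 of 8 (median 0.49), beside 8.88% of all genes. The sum of these large chaperones was 3110 ± 448 CPM under control and 3193 ± 587 CPM under salt (SD, n = 3), a difference within the spread of the replicates. Over all libraries 1 member gave 82.0% of that sum, so it says little of the rest, and 7 of the 8 members had a positive estimate. The numbers of calls in these lists rested on single libraries. Small heat shock proteins gave 1 call without control 1, control 3 or salt 1 and 2 without salt 2. Heat shock factors gave 1 or 2 whichever library was left out, and the large chaperones none without control 1, control 3, salt 1 or salt 2.

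JAZ repressors, which block jasmonate responses and are themselves early jasmonate targets, rose for 6 of 9 members, with a median of 1.06 and a range of 0.33 to 2.97. Their sum was 503, 456 and 390 CPM under control and 970, 1096 and 987 CPM under salt. The count was 3 without salt 2. In wild type 6 were called higher (median 1.5) and in the FKBP57 knockout 3 (median 0.07), beside 13.6% and 4.64% of all genes. The response was higher in the FKBP73 than in the FKBP57 knockout at an unadjusted p under 0.05 for 6 of 9 members, beside 3.39% of all genes in either direction, and for none after adjustment. The median difference was 0.74. The FKBP57 controls were uneven for the JAZ sum, at 624, 439 and 599 CPM, and the number was 5 of 9 without FKBP57 control 1 (median difference 0.69) and 6 of 9 without control 2 or control 3 (0.79 for each). It was 4 of 9 (0.57) without wild-type control 3, FKBP57 control 3 and FKBP57 salt 3 together. Genes of jasmonate synthesis with the activator MYC2 rose for 2 of 6 and fell for 1, and the lower call was lost when any library other than salt 3 was left out.

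All 18 light-harvesting and photosystem genes, which make the antenna and reaction centre proteins of chloroplasts, had a negative estimate (median -1.87, range -2.83 to -0.34), and 4 fell. Their sum was 12784, 20348 and 6794 CPM in the controls and 5452, 3297 and 7111 CPM under salt, so control 3 lay below salt 3. No member was called without control 1, control 2, salt 1 or salt 2, while 6 were without control 3 and 10 by DESeq2. With the 6 FKBP73 libraries fitted alone 8 fell. Rubisco, its activase and the Calvin cycle enzymes, which fix carbon, had 11 of 11 negative estimates (median -1.17). In edgeR none was called in the fit of all 18 libraries and 4 fell with the 6 FKBP73 libraries fitted alone, while DESeq2 called 3. The sum of this list was 25270, 47993 and 20438 CPM under control and 13370, 8618 and 19351 CPM under salt, 1 member giving 51.3% of it over all libraries. The medians of the light-harvesting list were -0.70 in wild type and -1.04 in the FKBP57 knockout, and the difference between the FKBP73 knockout and either reached an unadjusted p under 0.05 for no member.

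Enzymes of chlorophyll breakdown, which dismantle the pigment in senescing leaves, rose for 5 of 6 members (median 1.24, range 0.33 to 2.06). Their sum was 570, 677 and 556 CPM under control and 1478, 1320 and 1214 CPM under salt, with no overlap. Over all libraries 1 member gave 52.1% of that sum. The count was 2 without control 3 or salt 1 and 3 without control 1 or salt 2. In wild type 5 were called higher and in the FKBP57 knockout 1, beside 13.6% and 4.64% of all genes. The response differed from that of the FKBP57 knockout at an unadjusted p under 0.05 for no member, or for 2 without FKBP57 control 2.

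Cellulose synthases of the primary wall, which act in growing cells, fell for 2 of 6 members (median -0.90), and 5 of 6 had every salt library below every control, beside 21.7% of all genes. Their sum was 3955, 2366 and 4187 CPM under control and 1600, 1578 and 2286 CPM under salt. Those of the secondary wall, which thicken vessels and fibres, fell for 2 of 3 (median -1.20), from 381, 201 and 376 CPM to 102, 132 and 166 CPM. Without control 1, control 3, salt 1 or salt 2 the primary wall list gave 1 call and the secondary wall list none, and without control 2 each gave 3. With the 6 FKBP73 libraries fitted alone 5 primary wall and 3 secondary wall members fell. The secondary wall genes had a median of -1.36 in wild type, with 3 called lower, and of -0.12 in the FKBP57 knockout, with none. Over all genes 10.9% were called lower in wild type and 1.68% in the FKBP57 knockout. The difference between the knockouts (median -1.08) reached an unadjusted p under 0.05 for 2 of 3 members, or 1 of 3 without FKBP57 control 2, and passed adjustment for none.

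**Figure D4:**
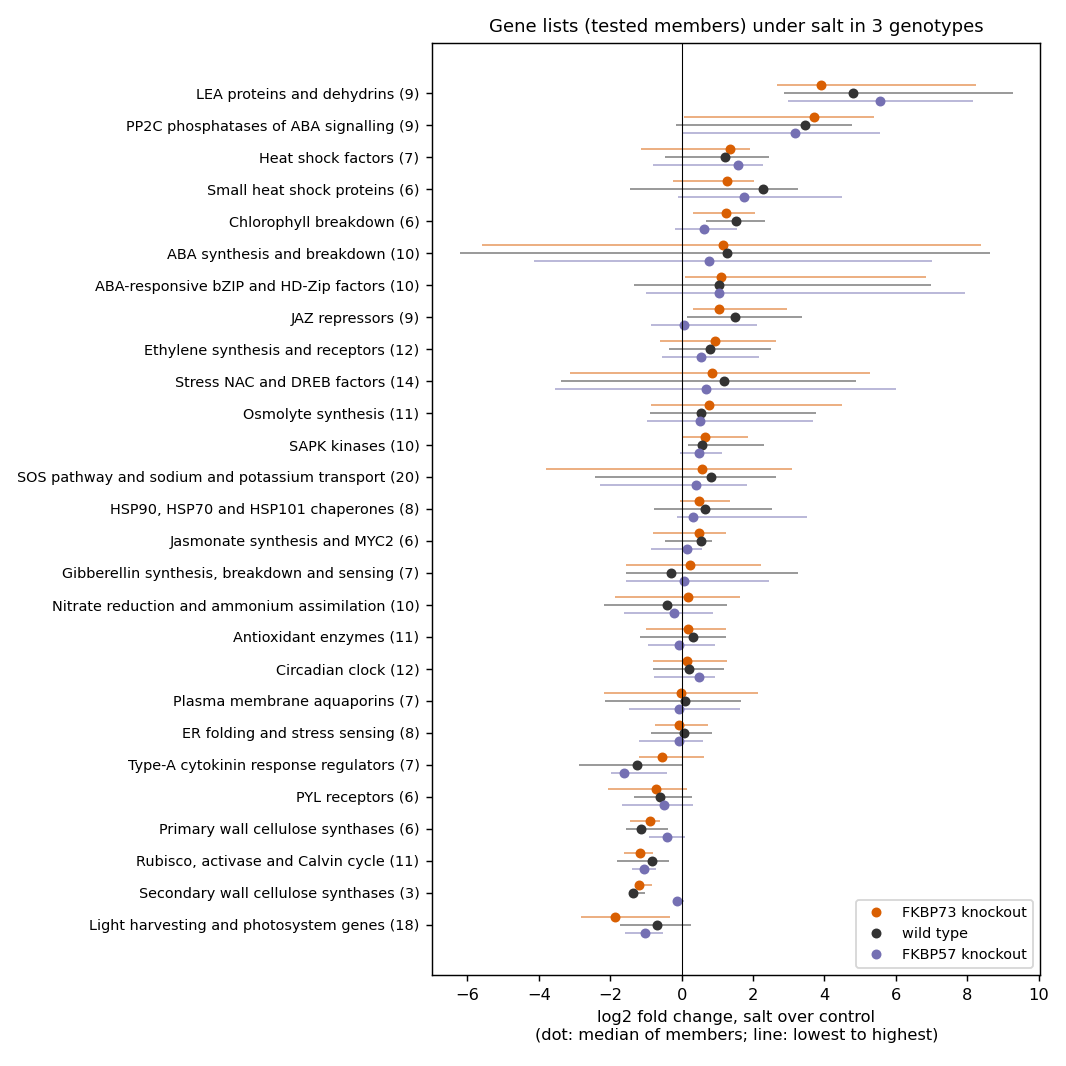
Median log2 fold change under salt (dot) and range from the lowest to the highest tested member (line) for 27 gene lists, in the FKBP73 knockout (orange), wild type (black) and the FKBP57 knockout (purple), with the number of tested members in parentheses. In the FKBP73 knockout the medians run from 3.92 for LEA proteins to -1.87 for light-harvesting genes.

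Circadian clock genes were included because the labels give no time for the controls. They rose for 1 of 12 members and fell for none (median 0.16), beside 8.88% and 5.46% of all genes. The 1 call was lost without control 1, control 3, salt 1 or salt 2. Their sum was 3533, 3594 and 2719 CPM under control and 2397, 1937 and 2515 CPM under salt, every salt library being below every control, with 1 member giving 66.6% of the sum over all libraries. The part of harvest time in the salt response was not tested.

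Across all genes, the response of the FKBP73 knockout was set beside those of wild type and the FKBP57 knockout, which come from other libraries. The spread of each gene was fitted over all 18 libraries, however, so calls in 1 genotype are not independent of calls in another. Salt changed 6364 genes in wild type (24.5%), 13.6% of all genes higher and 10.9% lower, and 1641 in the FKBP57 knockout (6.32%), 4.64% higher and 1.68% lower. These counts moved with single libraries, to 4237 without wild-type control 1, 3604 without control 2 and 3093 without salt 3, and in the FKBP57 knockout to 914 and 2974 without controls 1 and 2 and to 745 and 848 without salt 1 and salt 2. Genes called higher in both of the other genotypes numbered 1111. In the FKBP73 knockout 1110 of them had a positive estimate, 999 rose (89.9%, beside 8.88% of all genes) and 1086 had every salt library above every control (97.7%), beside 24.1% of all genes. Their median log2 fold change was 1.68 in the FKBP73 knockout, 1.98 in wild type and 1.65 in the FKBP57 knockout. Genes called lower in both others numbered 320, of which 319 had a negative estimate and 265 fell (82.8%, beside 5.46% of all genes), with a median of -1.43. The shares were smaller for genes called in wild type, whatever their call in the FKBP57 knockout: of 3539 called higher there, 1996 rose in the FKBP73 knockout (56.4%), and of 2825 called lower, 970 fell (34.3%) and 2114 had every salt library below every control (74.8%).

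No gene differed between the salt responses of the FKBP73 knockout and wild type at an adjusted p under 0.05 in edgeR. There were 777 (2.99%) before adjustment, at the same limit, and 4 by DESeq2. The number before adjustment rested on single libraries: it was 2235 without wild-type control 3, 1350 without FKBP57 control 2, 429 without wild-type control 2, 502 without FKBP73 control 1 and 458 without FKBP73 salt 2. Without wild-type control 3, FKBP57 control 3 and FKBP57 salt 3 together it was 4127, and 1 gene was called. Against the FKBP57 knockout edgeR called none, with 879 (3.39%) before adjustment, and DESeq2 14. The 879 became 1392 without FKBP57 control 3, and 2628 without the same 3 libraries, with none called. The median SE of a gene's difference was 0.49 on the log2 scale. A lack of calls leaves the likeness of the responses unproven.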

How the data were processed

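The values used were read counts per gene, deposited by the authors as 1 table of 37863 genes in 18 leaf libraries, and taken as whole counts without normalization. Reads were trimmed with fastp 0.22.0 and counted with HTSeq 0.9.1 on the genome build IRGSP-1.0, tools and build that are named per the submitters' processing notes. No source used here names the aligner, the annotation release or the strand setting, so overlapping, antisense and near-identical genes may share reads.

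The counts were tested in edgeR 4.0.16 (R 4.3.3, limma 3.58.1). The filterByExpr minimums were 10 counts and 15 in total, and the genes kept held 99.972% of counts. TMM scaling gave factors of 0.969 to 1.08 in the FKBP73 knockout. A quasi-likelihood model of 6 group means was fitted, and salt was tested within each genotype and as a difference between genotypes. Calls were made where the p adjusted by Benjamini-Hochberg over 25957 genes was under 0.05. CPM used TMM-scaled totals, and SDs of log2 CPM a prior count of 2. Standard errors were derived from the F statistics.

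The lists and the comparisons were chosen with earlier results of these data known. Genes were named by the rule given with them, which also asked for up to 12 genes with informative names in each direction. That condition selected none, since 1 identifier matched the reference table (assembly ASM3414082v1), so the 2 largest in each direction were printed and the lists were described by counts, medians and ranges. No sequences are shown.

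Alternatives were DESeq2 1.42.0, other scalings and filters, the replicate number as a block, the 6 libraries alone, a fit without 3 libraries picked by eye, and each library left out in turn. The method was first tested on simulated counts, with 100 genes changed by 1 and 100 by 2 on the log2 scale. It called 14% and 60% of these, with 4 false calls, so a lack of a call does not show a lack of response. Far fewer genes changed there than in the data, so the rates need not hold here. Counts of replicates differed by more than sampling noise in every pair of the FKBP73 knockout, with chi-square per degree of freedom of 25.0 to 103, so no library was counted as a repeat.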

Additional observations from a re-analysis of the deposited data

How the results depend on the processing

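The 3722 genes called in the FKBP73 knockout became 7150 when its 6 libraries were fitted alone (3617 higher, 3533 lower), and 97.3% of the 3722 were among them. They became 5615 (2382 lower) without wild-type control 3, FKBP57 control 3 and FKBP57 salt 3, and 1908 to 3268 with 1 FKBP73 library left out (1373 to 2037 higher, 535 to 1231 lower). DESeq2 called 5313, of which 2328 were lower. The share of calls that were higher was 61.9% in the fit of all libraries, 50.6% with the 6 libraries alone and 53.5% without FKBP57 control 2, a fit that called 5102 genes. The calls for wild type ran from 3093 to 7525 with 1 library left out. The calls for the FKBP57 knockout were 2987 by DESeq2, 4695 without those 3 libraries, and 745 to 2974 with 1 library left out. Differences between genotypes numbered 4 (wild type) and 14 (FKBP57 knockout) by DESeq2, and 1 (wild type) without those 3 libraries. The spread of replicates relative to level, as the square root of the common dispersion, was 37.7% in the fit of all 18 libraries. It was 23.5% with the 6 FKBP73 libraries alone, 35.3% with those of wild type and 46.7% with those of the FKBP57 knockout. With the 6 FKBP73 libraries alone, most gene lists also gave more calls, and no list gave fewer in total. The cause of the shifts in calls was not tested.

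Replicate numbers showed no clear pairing of the FKBP73 samples: deviations of same-numbered control and salt libraries correlated at 0.088, 0.020 and -0.063. The values were 0.284, 0.013 and 0.129 in wild type and 0.089, -0.516 and -0.531 in the FKBP57 knockout. Deviations from means of 3 libraries cannot settle whether samples were paired. With the replicate number as a block, 3282 genes were called in the fit of all 18 libraries (2034 higher, 1248 lower), and with the 6 libraries alone 5580 (2749 lower). RLE factors, library size alone, no filter and a mean of at least 5 CPM gave 3796, 4006, 3433 and 3127 calls, and no scaling moved the median of all genes by more than 0.030. For the 4 genes given by identifier, 54 of 60 recomputed values kept their direction and call, and 6 kept their direction but lost the call. Of the list medians, 382 recomputed values moved by less than the spread and 23 by more. That spread was the larger SD, under control or salt, of a list's mean log2 CPM, a wide limit where controls were uneven. By a limit on their ratio to the main fit, 681 recomputed counts of list members were kept and 129 moved. For counts over all genes these numbers were 78 and 31.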

Other observations

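In the FKBP73 knockout, ethylene synthesis and receptor genes rose for 6 of 12 members and fell for none (median log2 fold change 0.93, range -0.60 to 2.66), and 3 rose without control 1. Their summed level did not follow that count, at 566, 559 and 495 CPM under control and 619, 514 and 564 CPM under salt. Gibberellin genes rose for 2 of 7, or 1 without control 1, control 2 or salt 1, and their sum went from 202, 194 and 243 CPM to 349, 342 and 367 CPM with no overlap, 1 member giving 49.6% of the sum over all libraries. Type-A cytokinin response regulators, early targets of cytokinin, were called for none of 7 (median -0.54). In wild type 3 fell (median -1.24) and in the FKBP57 knockout 2 (median -1.62), beside 10.9% and 1.68% of all genes. The controls of this list were low in the FKBP73 knockout apart from control 2, at 73.5, 208 and 83.4 CPM, and no member's response differed from either genotype after adjustment. At an unadjusted p under 0.05, 2 of 7 differed from the FKBP57 knockout (median difference 1.13), beside 3.39% of all genes, and none from wild type. The 2 became 3 without FKBP57 control 2 and 1 without FKBP57 control 3.

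Genes of osmolyte synthesis, which make compatible solutes, rose for 3 of 11 members, and their sum went from 411, 418 and 470 CPM to 673, 741 and 727 CPM with no overlap. With the 6 FKBP73 libraries fitted alone 5 rose and 2 fell. Antioxidant enzymes rose for 2 of 11 (1 without control 1 or salt 1), and their sums overlapped, at 2958 to 4480 CPM under control and 3216 to 3675 CPM under salt. Nitrate reduction and ammonium assimilation genes rose for 3 of 10 and fell for 2, and the number that fell was 0 or 1 whichever library was left out. Plasma membrane aquaporins, which carry water across the membrane, rose for 1 of 7 and fell for 1, beside 8.88% and 5.46% of all genes. The lower call was lost without salt 1 or salt 2. Genes of protein folding and stress sensing in the endoplasmic reticulum rose for 2 of 8 and fell for none (median -0.06), with 1 called without control 1, control 3, salt 1 or salt 2. With the 6 FKBP73 libraries fitted alone 2 rose and 2 fell.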
